A study of Saccharomyces cerevisiae with 2 samples.

Results

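SNR40, SNR47, SNR52, SNR56, SNR79 and SNR87 are the 6 box C/D snoRNA genes of budding yeast that stand alone in the genome and guide a 2′-O-methylation of 18S rRNA. They were chosen by name, among 76 snoRNAs and 5758 features that were listed in the CRAC data of the study, and all 6 were found in the snoRNA class. The study asked which RNAs are touched by Sni445, a nucleolar protein encoded by YNL050C. The method, CRAC, joins proteins to the RNA they touch by UV irradiation of the culture, pulls out the tagged protein and sequences cDNA made from RNA pieces that stay attached.

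The tested strain expressed Sni445 from its own locus with a C-terminal HTP tag, made of histidines, a TEV protease site and protein A, with the URA3 marker of Kluyveromyces lactis. The control strain carried no tag. By the strain list of the study, the tagged strain was made in BY4741, a MATa strain with his3, leu2, met15 and ura3 mutations, and the control is labelled BY. Both cultures were grown in a synthetic glucose medium without tryptophan to an optical density of 0.6 and cross-linked for 100 seconds, and the cDNA was amplified over 16 PCR cycles. There was 1 library per strain, so no difference below has a replicate check. Intervals are at 95% and cover counting error only. Those in reads count each read as a molecule, and are too narrow because PCR copies of a cDNA are not separate molecules.

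A box C/D snoRNA folds so that its conserved box C near the 5′ end and box D near the 3′ end meet. A second, often degenerate pair, C′ and D′, lies inside the RNA. The core proteins Snu13, Nop56, Nop58 and the methyltransferase Nop1 assemble on the boxes, and the bases just upstream of box D or box D′ pair with rRNA. The rRNA base that pairs with the fifth base upstream of the box is methylated on its ribose. SNR4 and SNR45 are box C/D snoRNAs too, but guide cytidine acetylation of 18S rRNA by Kre33, and they dominate the library of the tagged strain.

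The 6 snoRNAs are shown to place the guides within RNAs that are all short, from 84 to 109 nt, since the counts give no positions within a gene. The sequences are from the RefSeq annotation of the R64 assembly, written as DNA from 5′ to 3′. Capitals mark the stretch that pairs with rRNA upstream of box D or D′, which in SNR79 includes 1 base that does not pair. The genes of SNR40 and SNR56 are on the plus strand, and the other 4 are on the minus strand.
SNR40, chrXIV:89210-89306: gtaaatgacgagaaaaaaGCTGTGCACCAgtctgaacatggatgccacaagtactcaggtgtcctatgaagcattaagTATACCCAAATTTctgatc
SNR47, chrIV:541602-541700: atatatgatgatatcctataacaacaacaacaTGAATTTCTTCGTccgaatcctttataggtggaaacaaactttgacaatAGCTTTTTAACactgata
SNR52, chrV:431129-431220: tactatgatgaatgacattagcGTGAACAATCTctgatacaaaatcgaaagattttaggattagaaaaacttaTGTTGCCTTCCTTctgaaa
SNR56, chrII:88190-88277: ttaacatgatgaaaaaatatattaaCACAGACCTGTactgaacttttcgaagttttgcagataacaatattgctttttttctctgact
SNR79, chrXII:348427-348510: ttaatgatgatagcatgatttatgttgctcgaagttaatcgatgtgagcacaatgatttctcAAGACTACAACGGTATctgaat
SNR87, chrXI:431030-431138: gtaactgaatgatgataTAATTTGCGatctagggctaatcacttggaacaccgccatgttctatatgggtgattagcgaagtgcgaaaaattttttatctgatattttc

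Each rRNA site annotated by RefSeq for these genes was matched to its snoRNA by a run of base pairs across the site, G-U pairs included. The run with the most Watson-Crick pairs was taken, and length decided ties. It was cut to end before the place of the box, 5 bases after the base that pairs with the site. At its other end it passed over 1 mismatch where at least 3 pairs followed. There were 9 such sites, 6 in 18S and 3 in 25S rRNA. At 7 of the 9, the letters CTGA of box D followed 5 bases after the base that pairs with the site. The exceptions were the 25S site of SNR47, where CCGA stood at that place, and the 18S site of SNR87, where it was TCTA. The box C letters TGATGA occurred in 5 of the 6 snoRNAs, all but SNR40, and in 52.9% of the 70 other listed snoRNAs. The letters CTGA occurred in all 6, and in 80.0% of the others. Both motifs were searched in the RNA strand, and a match is only a match of letters.

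The 18S stretches that the guides address are given with 10 nt on each side of the methylated base, which is in capitals. They come from RDN18-1, on the minus strand of chrXII:455933-457732, and were the same in RDN18-2.
SNR40, position 1271: gtgggtggtgGtgcatggccg
SNR47, position 619: tgttgcagttAaaaagctcgt
SNR52, position 420: acatccaaggAaggcagcagg
SNR56, position 1428: ggcaataacaGgtctgtgatg
SNR79, position 1007: gatcagatacCgtcgtagtct
SNR87, position 436: gcaggcgcgcAaattacccaa

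The pairing with 18S rRNA spans 11 base pairs for SNR40, 11 for SNR47, 13 for SNR52, 11 for SNR56, 15 with 1 mismatch inside for SNR79, and 9 for SNR87. It lies before box D in SNR47, SNR52 and SNR79, and before the inner box in SNR40, SNR56 and SNR87. SNR40, SNR47 and SNR52 hold a second guide for 25S rRNA, at position 898, 2220 and 2921, before the other box. None of the 6 overlaps another gene or lies in an intron in R64. SNR52, known to be transcribed by RNA polymerase III where most yeast snoRNAs are made by RNA polymerase II, has SNR4 as its nearest snoRNA gene, 6245 nt away. For the other 5 the nearest snoRNA gene on the chromosome was at least 66153 nt away. Outside its own gene, the longest match of a member in the genome was 34 nt, for SNR56, at 88.2% identity, so reads of these RNAs have no full second copy to be shared with.

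In the data, the 6 guides were a minor part of the RNA recovered with Sni445-HTP, 1111 sense reads or 0.00412% of the sense counts. All 6 were read in the tagged strain, from 36 to 345 sense reads each, where SNR4 had 12785901 and SNR45 had 8670661. In the untagged control, SNR40 and SNR52 were read and the other 4 had no read. The Sni445-HTP library held 26984818 sense counts over 21867727 mapped reads, and the control library held 22960662 over 12654405. No antisense read fell on any of the 6 in either library.

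SNR40 guides methylation of a guanosine at position 1271 of 18S rRNA, near the site addressed through SNR4, and of a uridine in 25S rRNA. It had 345 sense reads with Sni445-HTP, against 10013 in the control. These were 0.00128% of the sense counts with Sni445-HTP, against 0.0436% in the control, and the ratio of the shares was 0.0293 (0.0263 to 0.0326). The reads rested on 69 distinct cDNAs with Sni445-HTP and 80 in the control. The files do not split cDNAs by strand, so the total of cDNAs over all features holds antisense ones as well. As a share of that total, SNR40 was higher with Sni445-HTP, 0.0214% against 0.00995%, a ratio of 2.15 (1.54 to 3.01). Over the features with no antisense read in either library, where all cDNAs are sense, the ratio was 2.22 (1.59 to 3.10). Reads and cDNAs thus gave opposite directions for this snoRNA. The read interval counts each read as a molecule, so it is too narrow where 10013 control reads rest on 80 cDNAs.

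SNR52 guides methylation of an adenosine at position 420 of 18S rRNA and of a uridine in the peptidyl transferase region of 25S rRNA. Its sense reads numbered 299 with Sni445-HTP, against 1479 in the untagged strain, shares of 0.00111% and 0.00644% with a ratio of 0.172 (0.151 to 0.195). Its 58 cDNAs with Sni445-HTP and 67 in the control gave 0.0180% and 0.00833% of the cDNAs, a ratio of 2.16 (1.49 to 3.11), and of 2.23 (1.54 to 3.22) over the features with no antisense read. As for SNR40, the direction turned with the unit. The cDNA ratios of SNR40 and SNR52 lay within each other's intervals, while their read ratios did not.

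SNR56, SNR79, SNR47 and SNR87 each guide 1 methylation in 18S rRNA, and SNR47 also 1 in 25S rRNA. SNR56 had 231 reads from 26 cDNAs with Sni445-HTP, and SNR79 had 162 reads from 33 cDNAs. SNR47 had 38 reads from 10 cDNAs, and SNR87 had 36 reads from 15 cDNAs. All 4 had 0 reads and 0 cDNAs in the control. Of the 397 features with at least as many Sni445-HTP reads as SNR87, 17.6% also had no control read. Among such snoRNAs other than SNR4 and SNR45, the guides included, it was 31.5% of 73.

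Where the control had 0 counts, 3 counts were used as a floor, so that the ratio is a lower bound as far as the control count goes. The counting error of the Sni445-HTP count is not in this bound. In reads, the share was then at least 65.5-fold higher with Sni445-HTP for SNR56, at least 45.9-fold for SNR79, at least 10.8-fold for SNR47 and at least 10.2-fold for SNR87. In cDNAs, with a floor of 3 cDNAs, the bounds were 21.6 for SNR56, 27.4 for SNR79, 8.31 for SNR47 and 12.5 for SNR87. The bounds in reads treat each read as a molecule. Control snoRNAs with at least 10 cDNAs, the 6 left out, had a median of 47.9 reads per cDNA, so that a single control cDNA would often have brought more reads than the floor holds.

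**Figure D1:**
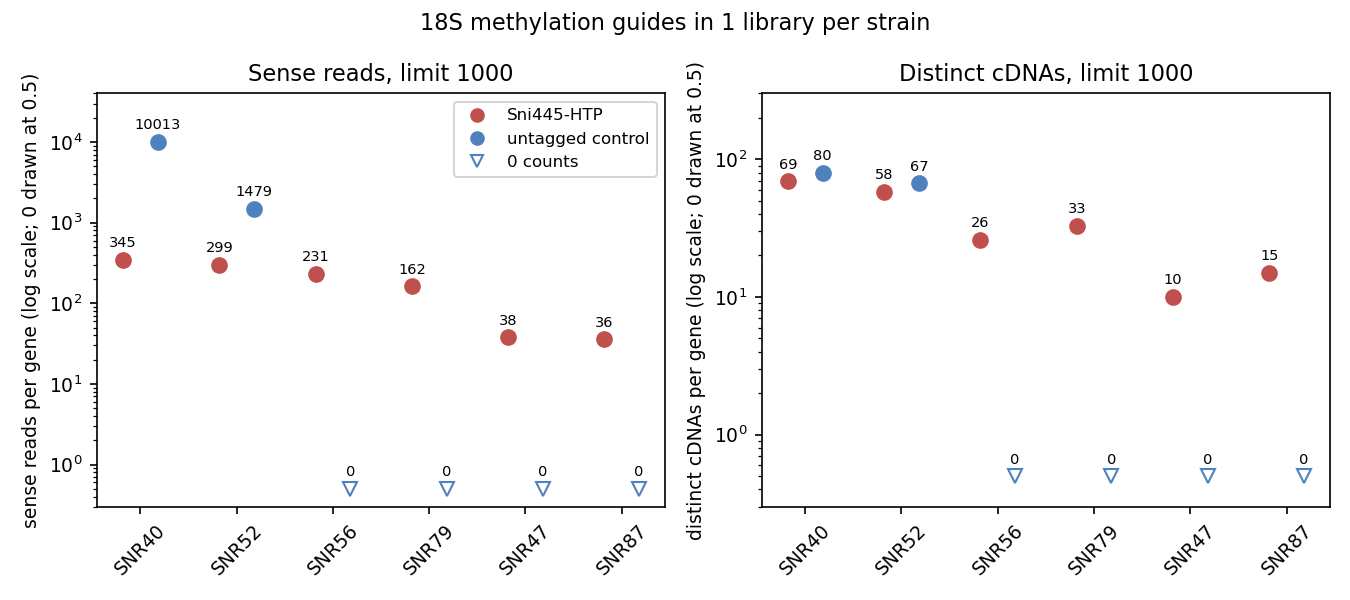
Sense reads (left) and distinct cDNAs (right) of the 6 guides under the 1000 limit on read length, on log axes, with 1 point per library and a count of 0 drawn as an open triangle at 0.5. SNR40 has 345 reads with Sni445-HTP against 10013 control reads, but 69 and 80 cDNAs, and SNR56, SNR79, SNR47 and SNR87 have counts only with Sni445-HTP.

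A feature was called when its share differed at least 4-fold between the libraries, among features that had 10 reads or more over both libraries. In reads, 2 of the 6 guides, SNR40 and SNR52, were at least 4-fold lower with Sni445-HTP, where 62.6% of the 1646 features tested were. Under TMM and median-ratio scaling neither was lower: SNR52 turned to ratios of 6.02 and 6.98, and SNR40 came to 1.03 and 1.19, close to 1. The other 4 were at least 4-fold higher, where 17.4% of all features were. The 4 entered this test only through their reads with Sni445-HTP, so they could not have been called lower. In cDNAs, with 10 cDNAs or more of either strand over both libraries, none of the 6 was at least 4-fold lower, where 29.1% of 1834 features were, and the same 4 were at least 4-fold higher, where 12.1% were. Among the 935 such features with no antisense read, 28.0% were lower and 12.8% higher, and the counts of guides were the same 0 and 4. Of these 4, SNR47 and SNR87 had cDNA intervals that reached below 4-fold, to 2.21 and 3.64, with the control at the floor. The median ratio of the 6 was 10.5 in reads, with counts of 0 at the floor, beside 0.0449 over all features tested, and this median falls on SNR47 and SNR87, both at their bounds. Over the pair with control reads, the median was 0.101.

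The absence of control reads was itself common among snoRNAs. Beside 4 of the 6 guides, no control read was found for 17.6% of the 397 features with at least as many Sni445-HTP reads as SNR87. Among such snoRNAs other than SNR4 and SNR45, the guides included, it was 31.5% of 73. It moved with length. Among the 35 snoRNAs no longer than SNR87, at 109 nt, 19 had no control read, the 4 guides included, and among the 39 longer ones 5 had none. Over these 74 snoRNAs, length and Sni445-HTP cDNA count had a Spearman's rho of 0.77, and length and control cDNA count one of 0.65. These are correlations across snoRNAs of the same libraries, and genes are not replicates. The part of length in the zeros of the 4 guides was not tested.

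**Figure D2:**
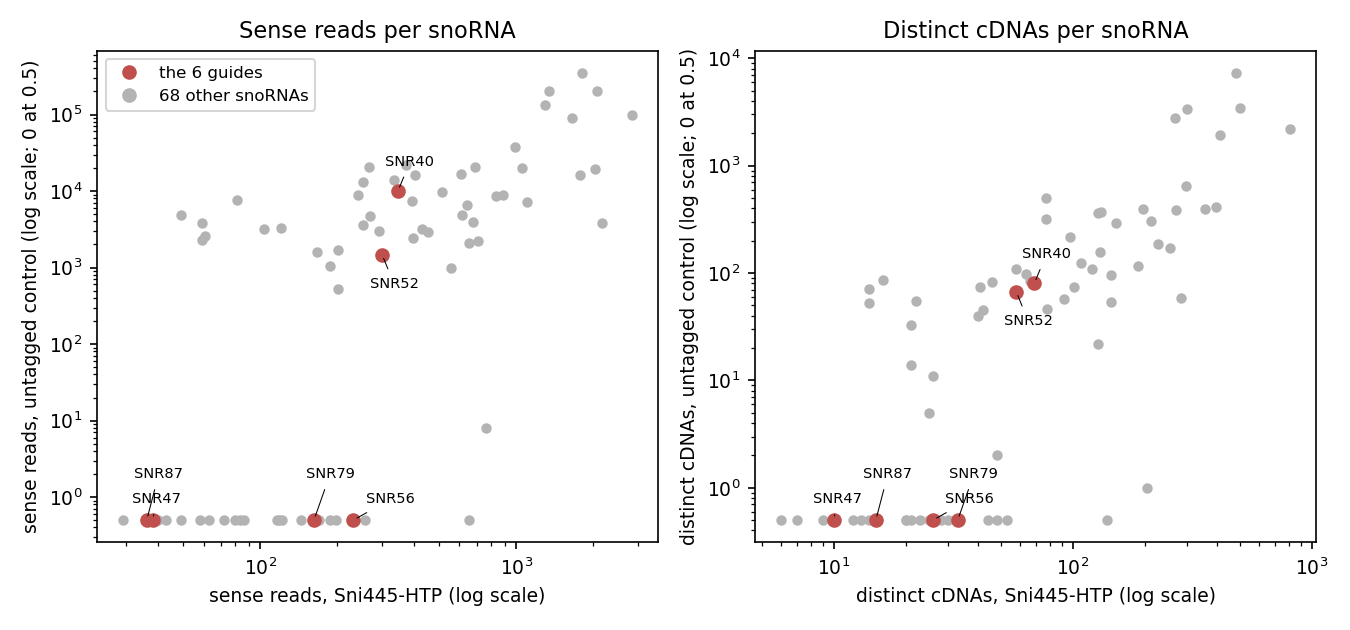
Control counts against Sni445-HTP counts for 74 snoRNAs other than SNR4 and SNR45, in sense reads (left) and distinct cDNAs (right), on log axes with a control count of 0 drawn at 0.5. The 6 guides, in red, fall on both groups of points: SNR40 and SNR52 among the 50 snoRNAs with control reads, and SNR47, SNR56, SNR79 and SNR87 on the row of 24 with none.

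Because SNR4 and SNR45 took most of the Sni445-HTP counts, the share of every other RNA was also compared within the 74 other snoRNAs. Within these, the 6 guides together had 1111 of 37592 reads with Sni445-HTP, 2.96%, against 11492 of 1431463 in the control, 0.803%, a ratio of 3.68 (3.46 to 3.92). In cDNAs they had 211 with Sni445-HTP and 147 in the control, 2.42% and 0.527% of those of the 74 snoRNAs, a ratio of 4.60 (3.71 to 5.72). Ratios above 1 were common on this scale. The single ratios of the 68 other snoRNAs had a median of 4.30 in reads and 4.16 in cDNAs, with control counts of 0 at a floor of 3. These summed ratios of the guides therefore do not set them apart from the other snoRNAs. Over all features, the summed read ratio was 0.0823 (0.0773 to 0.0875), and SNR40 set it. Without SNR40, all control counts left are those of SNR52, 1479 reads from 67 cDNAs. The ratios without SNR40 thus set the Sni445-HTP counts of all the remaining guides over the control count of 1 gene. Without SNR40 the read ratio was 0.441 (0.403 to 0.481) over all features and 19.7 (18.05 to 21.5) within the 74 snoRNAs. In cDNAs over all features, the direction was the opposite, with a ratio of 3.58 (2.885 to 4.45) for the 6. Without SNR40 the cDNA ratio was 5.28 (3.925 to 7.175) over all features and 6.80 (5.05 to 9.23) within the 74 snoRNAs.

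Single guides moved differently on this scale. SNR40 had 0.918% of the reads of the 74 snoRNAs with Sni445-HTP, against 0.699% in the control, with a ratio of 1.31 (1.17 to 1.46), which was 0.895 (0.792 to 1.01) under the 30 limit. SNR52 had 0.795% with Sni445-HTP, against 0.103% in the control, and thus a ratio of 7.70 (6.78 to 8.72). No guide was at least 4-fold lower on this scale, where 1.35% of the 74 were, and 5 of the 6, all but SNR40, were at least 4-fold higher, where 54.1% were. Of these 5, 4 rest on the floor. The median ratio over the 74 was 5.00, so that SNR40 lay below the middle of the snoRNAs and SNR52 above it. Ranked by read ratio among the 50 snoRNAs with control reads, SNR52 was at place 7 from the top and SNR40 at place 30. In cDNA ratio they were neighbours, at places 22 and 23.

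**Figure D3:**
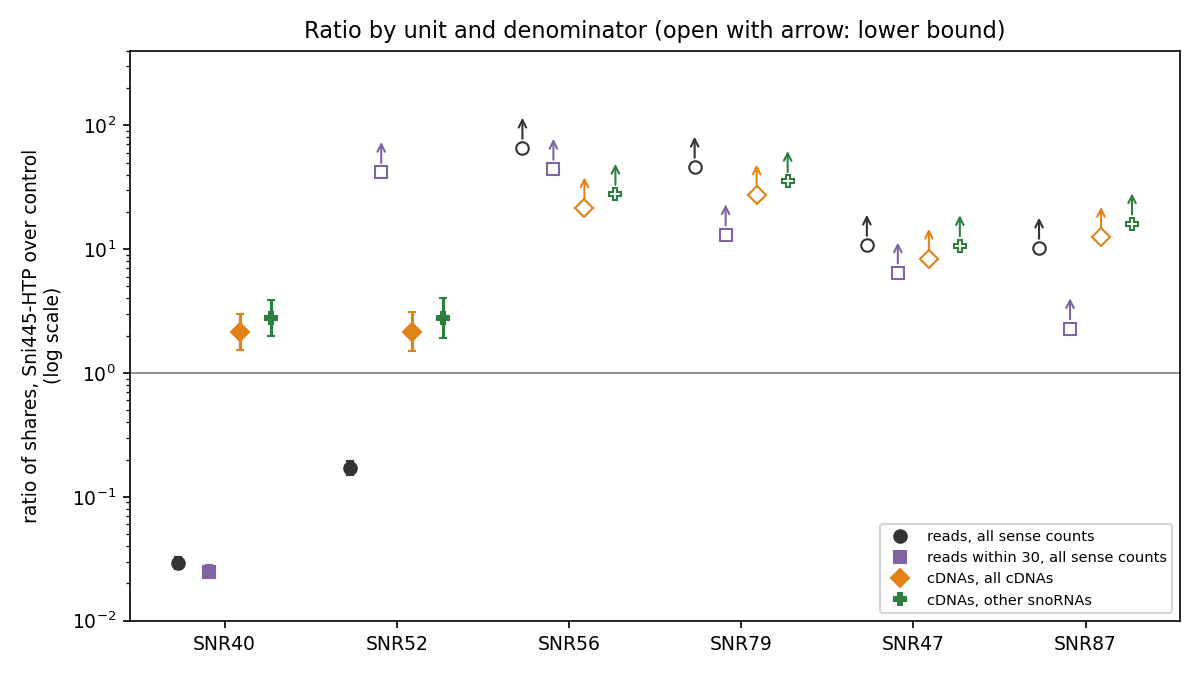
Ratio of shares, Sni445-HTP over control, for each guide on a log axis, in reads, in reads within the 30 limit and in cDNAs over all features, and in cDNAs over the other snoRNAs. Bars are exact 95% intervals, open symbols with an arrow are lower bounds from a floor of 3 counts, and the line marks 1, which SNR40 and SNR52 cross between reads (0.0293 and 0.172) and cDNAs (2.15 and 2.16).

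The levels of the 6 guides were ordered per length, as sense reads per 100 nt of gene. With Sni445-HTP, SNR40 had 356 (319 to 395), SNR52 had 325 (289 to 364) and SNR56 had 262.5 (230 to 299). SNR79 followed with 193 (164 to 225), SNR47 with 38.4 (27.2 to 52.7) and SNR87 with 33.0 (23.1 to 45.7). Neighbours in this order had overlapping intervals, apart from SNR56 and SNR79, and SNR79 and SNR47. These intervals count each read as a molecule and are too narrow, since the 231 reads of SNR56 rest on 26 cDNAs. The separation of SNR56 from SNR79 did not hold in cDNAs. The step from SNR79 to SNR47 was by far the widest.

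In cDNAs per 100 nt with Sni445-HTP, SNR40 had 71.1 (55.4 to 90.0), SNR52 had 63.0 (47.9 to 81.5) and SNR79 had 39.3 (27.0 to 55.2). SNR56 had 29.5 (19.3 to 43.3), SNR87 had 13.8 (7.70 to 22.7) and SNR47 had 10.1 (4.84 to 18.6). SNR56 and SNR79 changed places against the order in reads, and so did SNR47 and SNR87, with every neighbouring pair overlapping. In the control, SNR40 had 82.5 cDNAs per 100 nt (65.4 to 103) and SNR52 had 72.8 (56.4 to 92.5), which also overlap. Among the 74 snoRNAs ranked by Sni445-HTP cDNAs per length, SNR40 was at place 20 and SNR47 at place 71.

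Fragments of the guides differed in length within the Sni445-HTP library. The reads were counted under a limit of 1000 on read length and again under a limit of 30. Of the SNR56 reads, 92.2% were within the 30 limit (88.0 to 95.3), the highest share in reads of the 74 snoRNAs. SNR40 had 83.2% (78.8 to 87.0), SNR47 81.6% (65.7 to 92.3) and SNR52 67.2% (61.6 to 72.5). SNR79, with 38.9% (31.3 to 46.9), and SNR87, with 30.6% (16.4 to 48.1), were mostly read in longer fragments. The median of the 68 other snoRNAs was 56.1% in reads, so that the 6 guides lie on both sides of it. In cDNAs, SNR56 had 80.8% (60.65 to 93.45), where the highest of the other snoRNAs with at least 10 cDNAs had 80.95%. SNR79 had 42.4% (25.5 to 60.8) of cDNAs within the limit and SNR87 26.7% (7.79 to 55.1), intervals that do not exclude an equal split.

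The control gave other lengths where it could be compared. SNR40 had 71.9% of its control reads within the limit (71.1 to 72.8), against 83.2% with Sni445-HTP. In cDNAs the gap was wider, at 73.9% (61.9 to 83.7) of Sni445-HTP cDNAs and 36.2% (25.8 to 47.8) of control cDNAs. For SNR52, 201 of 299 reads with Sni445-HTP were within the limit, against 0 of 1479 in the control. All 67 control cDNAs of SNR52 were longer, an interval of up to 5.36%, while 53.4% of the Sni445-HTP cDNAs were within the limit (39.9 to 66.7). Of the 49 snoRNAs with at least 10 control reads, 4 had no control read within the limit, SNR52 included, and 5 had no longer one.

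**Figure D4:**
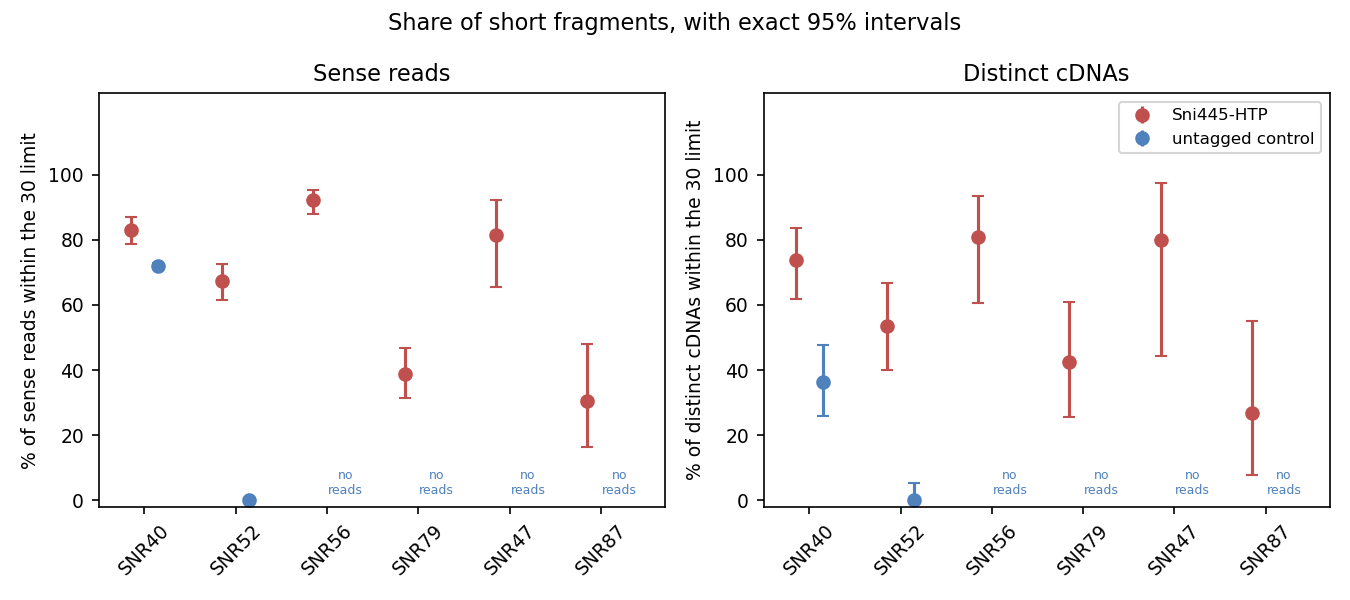
Percentage of sense reads (left) and distinct cDNAs (right) of each guide that fall within the 30 limit on read length, with exact 95% intervals, where no point is drawn for a guide without control reads. SNR52 stands at 67.2% of reads with Sni445-HTP and at 0 in the control, and SNR79 and SNR87 are the lowest with Sni445-HTP.

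Under the 30 limit, SNR40 alone of the 6 was at least 4-fold lower with Sni445-HTP, where 54.6% of 1223 features were. Its share had a ratio of 0.0248 (0.0220 to 0.0279) (287 Sni445-HTP and 7204 control reads). SNR47, SNR52, SNR56 and SNR79 were at least 4-fold higher, where 14.0% were, all against a control count of 0. For SNR52 this turned the direction, to a bound of at least 41.7-fold higher. SNR87 had 11 short reads with Sni445-HTP and none in the control, a bound of 2.28.

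The guides also differed in how many reads stood behind a cDNA. With Sni445-HTP there were 5.00 reads per cDNA for SNR40, 5.16 for SNR52, 8.88 for SNR56, 4.91 for SNR79, 3.80 for SNR47 and 2.40 for SNR87. The other 68 snoRNAs had a median of 4.17 over the 65 with at least 10 cDNAs. In the control, SNR40 had 125.2 reads per cDNA and SNR52 had 22.1, around the snoRNA median of 47.9 (range 20.5 to 301). The difference between read and cDNA ratios for SNR40 and SNR52 moved with these values, and what they come from was not tested.

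The 6 were set beside lists of other methylation guides, as a description with no test. Box C/D guides of 18S rRNA from clusters or introns, 10 genes with SNR55 and SNR70 as predicted guides, had 5 without control reads. Their median was 43.5 Sni445-HTP cDNAs. In reads over library totals, 5 were at least 4-fold lower and 5, those without control reads, at least 4-fold higher. Of the 1646 features tested, 62.6% were lower and 17.4% higher. In that list SNR41, another 18S guide, had the lowest ratio, 0.0204 (334 Sni445-HTP and 13938 control reads). SNR55, which is predicted to guide the 18S site next but one to that of SNR40, had the highest, at least 72.9 (257 Sni445-HTP and 0 control reads). Guides of 25S rRNA from their own genes, 12 listed genes, had 6 without control reads, with a median of 22.5 cDNAs. In reads, 5 were at least 4-fold lower and 6, those without control reads, at least 4-fold higher. Among them SNR64 was lowest, at 0.00862 (49 Sni445-HTP and 4839 control reads). SNR68 was highest, at least 33.5 (118 Sni445-HTP and 0 control reads). The 6 guides had a median of 29.5 Sni445-HTP cDNAs, between the 2 lists. Over the members with control cDNAs, the median cDNA ratio was 2.15 for 2 of the 6, SNR40 and SNR52. It was 1.38 for 5 of the other 18S guides and 1.59 for 6 of the 25S guides.

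For each guide, the snoRNA with the most similar profile was sought over 4 values, the log2 share in each library under each length limit. SNR40 was nearest to SNR41, at a distance of 0.87 on the log2 scale. SNR56 was nearest to SNR55 (0.29) and SNR87 to SNR57 (0.73), both guides of 18S methylation from a cluster, SNR55 by prediction. SNR47 was nearest to SNR62 (0.18), a guide of 25S methylation. SNR52 was nearest to SNR81 (1.07) and SNR79 to SNR85 (0.31), which are box H/ACA guides of pseudouridylation. With 2 libraries and many zeros, such a distance describes these counts and nothing more.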

How the data were processed

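CRAC libraries of 1 Sni445-HTP and 1 untagged strain were used. The authors demultiplexed the reads with 1 mismatch allowed, checked them with FastQC 0.12.1, aligned them with Novoalign 3.09.00, placing reads with several matches at random, and counted with pyReadCounters (Counters 1.4.4 by the file headers) on their EF2.59 annotation. The deposited values are raw counts per feature (sense reads, antisense reads and distinct cDNAs), with cDNAs of both strands together, made once with reads limited to a length of 1000 and once to 30. How cDNAs were collapsed is not given in the sources used here. A feature that is not listed was taken as 0. A read on overlapping features counts on each.

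R64 (RefSeq) served for places, lengths and sequences only, and all 76 snoRNA names matched. Shares had exact Clopper-Pearson intervals and ratios exact conditional binomial ones, with Python 3.11.15, numpy 2.4.6 and scipy 1.17.1. TMM factors came from edgeR 4.0.16 in R 4.3.3, and plots from matplotlib 3.10.9. The ratio and the call rule were run on simulated counts in which each read was a molecule. PCR copies were not simulated, and whether the lower bounds hold the true ratio was not checked.

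The 6 genes and the lists were chosen with earlier results of these data known. Named are the 6, SNR4 and SNR45, the nearest snoRNA to each guide, and the lowest and highest of each list. SNR31 was named after its values were seen. SNR65, also put in the 25S list, has no ratio here and was left out of its 12 genes. Taken as 0, it would make 7 of 13 without control reads. Alternatives were the 30 limit, longer reads, cDNAs, other denominators, antisense reads, features without antisense reads (added after seeing the data), median-ratio and TMM scaling, and other floors, minimums and folds.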

Additional observations from a re-analysis of the deposited data

How the results depend on the processing

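The read ratios of SNR40 and SNR52 turned from below to above 1 under several settings. In cDNAs they were 2.15 and 2.16 under the 1000 limit, and 2.21 and at least 12.96 under the 30 limit. Over features without antisense reads, an alternative chosen after seeing the data, the cDNA ratios were 2.22 and 2.23. In cDNAs over the other snoRNAs they were 2.77 and 2.78. The read ratios were 1.31 and 7.70 over the other snoRNAs, 1.19 and 6.98 under median-ratio scaling, and 1.03 and 6.02 under TMM scaling. Under the 30 limit SNR52 alone turned, to at least 41.7. Scaling multiplied every ratio by the same factor, 40.6 for median ratios and 35.0 for TMM. Directions of SNR40 and SNR52 are given in the text relative to library totals. Under these scalings SNR52 turned to well above 1, while SNR40 came close to 1, with no clear direction. SNR47, SNR56, SNR79 and SNR87 stayed above 1 under every setting run, always against a control count of 0.

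The median ratio over the 6 was 10.5, and became 470 over the other snoRNAs, 3.26 without rRNA in the denominator, 426 under median-ratio and 367 under TMM scaling. It was 50.5 without SNR4 and SNR45 in the denominator, 31.5 with a floor of 1 count, 4.77 in longer reads and 4.60 in cDNAs under the 30 limit. The number at least 4-fold lower, 2, became 1 under the 30 limit and without SNR4 and SNR45 in the denominator. It became 0 in cDNAs under both limits and without antisense features, over the other snoRNAs, and under median-ratio and TMM scaling. The number at least 4-fold higher, 4, became 2 without rRNA in the denominator and 2 with a minimum of 100 reads, which left out SNR47 and SNR87. It was 3 in longer reads, where SNR47 was at 2.67, and 3 in cDNAs under the 30 limit, where SNR52 passed while SNR47, at 3.35, and SNR87, at 1.67, did not. It was 5 over the other snoRNAs and under both scalings. Apart from the scalings and denominators, which act through their factor, the cause was not tested. No paired analysis was possible because there was 1 library per strain. With 10 to 69 cDNAs per guide in the Sni445-HTP library, the order of neighbouring guides in cDNAs per length was not detectable at this depth.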

Other observations

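The control counts of the snoRNAs left a gap, noticed after the values were seen. Of the 74 snoRNAs other than SNR4 and SNR45, 24 had no control read, SNR31 had 8, and the other 49 had at least 519. SNR52, with 1479 control reads, stood near the lower edge of the upper group, and SNR40, with 10013, above its middle, since the median of the 50 with control reads was 6920. No such gap was present with Sni445-HTP, where the 74 began at 29 reads. The 24 without control reads had a median of 84.5 reads with Sni445-HTP and the 50 with control reads one of 441. SNR56, with 231, and SNR79, with 162, were above the median of the 24, and SNR47 and SNR87 below it.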
